A study of Mus musculus with 12 samples.

Results

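Complex I of the respiratory chain is built from nuclear and mitochondrial gene products, and 42 genes of the polyadenylated RNA table carry a symbol that starts with Nduf, of 57683 genes in all. The prefix alone decides which genes belong, and it uses none of their values. Of these, 38 name structural proteins and 4 (Ndufaf1 to Ndufaf4) name assembly factors. In cardiomyocytes against nonmyocytes of the mouse heart, 39 of the 40 genes that had enough counts to test were higher and 1, Ndufa4l2, was lower, where 31.6% of all 14734 tested genes were higher and 32.1% were lower, 63.7% in either direction (two-sided quasi-likelihood test of edgeR, Benjamini-Hochberg adjusted p under 0.05). Ndufaf4, counted among the higher genes, had enough counts to test through the cardiomyocyte libraries alone. The median log2 fold change was 3.04 over the 36 tested structural genes and 2.10 over the 4 assembly factors, against -0.02 over all tested genes. Every cardiomyocyte library stood above every nonmyocyte library for 38 of the 40, as it did for 34.1% of all tested genes. Every cardiomyocyte library stood below every nonmyocyte library for Ndufa4l2, as it did for 36.3% of all tested genes. Its call was near the threshold (edgeR adjusted p = 0.0481) and was lost in most fits with a library left out.

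Complex I takes electrons from NADH and passes them to ubiquinone in the inner mitochondrial membrane, and it pumps protons out of the matrix as it does so. Its matrix arm holds the flavin and the iron-sulfur clusters that carry the electrons, and its membrane arm holds the proton pumps, several of which are coded in mitochondrial DNA. Around these core subunits sit accessory subunits, which have no redox group of their own in most cases, and assembly factors help to join the parts and then leave. Heart muscle is rich in mitochondria and draws most of its ATP from this chain.

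Hearts of 3 wild-type female FVB/NJ mice, an inbred strain, were taken at 12 weeks of age, perfused with collagenase and divided by gravity into 2 fractions. Cardiomyocytes, the contracting muscle cells, gave RNA at once and make up the libraries of the first group (n = 3). Nonmyocytes were first grown in dishes until the culture was mostly fibroblasts, the cells that make connective tissue, and make up the second group (n = 3). The protocol text gives 2 passages for that culture and the cell type label calls it P1. Since culture was limited to the nonmyocytes, an effect of culture and one of cell type cannot be told apart below, and in bulk RNA the same holds for fewer cells of a type and less RNA per cell.

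Library totals were 5956831 to 26851830 counts in cardiomyocytes and 8126422 to 10792544 counts in nonmyocytes, and cardiomyocyte library 1 was the shallowest. Of all called genes 49.6% were higher in cardiomyocytes, and 30.9% with library totals as the scale. All 8 sarcomere markers were higher in cardiomyocytes, with sums of 137769 to 180836 CPM in cardiomyocyte libraries and 970.2 to 1298 CPM in nonmyocyte libraries (CPM, counts divided by the scaled library size). All 10 fibroblast markers were lower, with sums of 454 to 725 CPM in cardiomyocytes and 29273 to 33720 CPM in nonmyocytes, and so were all 4 smooth muscle markers (321 to 429.7 CPM in cardiomyocytes and 6239.6 to 7801 CPM in nonmyocytes). Of 5 endothelial markers 4 were tested and higher in cardiomyocytes (sums of 319.7 to 706 CPM in cardiomyocytes and 52.4 to 62.4 CPM in nonmyocytes), while Pecam1 stood at or near 0 in both. Macrophage markers summed to 15.1 to 19.2 CPM in cardiomyocytes and 57.6 to 70.7 CPM in nonmyocytes, with 2 of 4 tested and lower in cardiomyocytes and Ptprc and Emr1 under 1 CPM in both. The part of these other cells in the results on complex I was not tested. The nonmyocyte level was a median of 13.4% of the cardiomyocyte level for the tested complex I genes and 0.707% for the sarcomere markers.

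Promoters are shown first, as a description apart from the folds. RefSeq promoter sequence (build GRCm38.p6, 250 bases before to 50 bases after the start of transcription) was at hand for 37 of the 42 genes. On either strand, AAGATGGC, the letters bound by the transcription factor YY1, stood in 7 of these 37 (18.9%), against 3.19% of the promoters of 27025 genes. All 7 belong to structural genes and lie on the gene's own strand, with the first base 23 to 39 bases into the transcript, counting the start as 1. None overlapped another searched motif. The motif itself holds the letters ATG. The 30 bases around each are printed with the motif in capitals.
Ndufc1 (chr3:51408915-51408944, minus strand): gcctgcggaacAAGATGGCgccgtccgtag
Ndufa9 (chr6:126849097-126849126, minus strand): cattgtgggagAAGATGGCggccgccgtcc
Ndufa3 (chr7:3617384-3617413, plus strand): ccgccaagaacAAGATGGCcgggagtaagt
Ndufs7 (chr10:80249462-80249491, plus strand): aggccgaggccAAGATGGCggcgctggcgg
Ndufs6 (chr13:73328433-73328462, minus strand): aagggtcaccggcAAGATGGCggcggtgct
Ndufs4 (chr13:114388045-114388074, minus strand): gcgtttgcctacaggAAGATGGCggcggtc
Ndufb8 (chr19:44555393-44555422, minus strand): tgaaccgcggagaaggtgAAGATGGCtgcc

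The letters GCGCATGC, bound by NRF1, a regulator of nuclear genes for mitochondrial proteins, stood in 4 of 37 promoters (10.8%), against 3.05% of all. Read on the other strand they are GCATGCGC, and where both readings overlap they form GCGCATGCGC, as in Ndufaf4 and Ndufa11. The 60 bases around the match before the start are printed for each, since these 4 span accessory subunits of both arms and an assembly factor. Capitals mark the motif on either strand.
Ndufa8 (chr2:36049339-36049398, minus strand): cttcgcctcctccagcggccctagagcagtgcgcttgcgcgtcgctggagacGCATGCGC
Ndufaf4 (chr4:24897944-24898003, plus strand): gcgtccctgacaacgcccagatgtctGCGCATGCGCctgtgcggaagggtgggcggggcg
Ndufa6 (chr15:82354341-82354400, minus strand): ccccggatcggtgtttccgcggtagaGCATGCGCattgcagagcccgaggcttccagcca
Ndufa11 (chr17:56717676-56717735, plus strand): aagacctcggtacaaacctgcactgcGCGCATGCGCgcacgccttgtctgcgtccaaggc

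Other letters were found at shares nearer to those of all promoters. CCGGAAG, bound by ETS factors such as GABP, stood in 13.5% of complex I promoters and 9.93% of all promoters. AAGGTCA, bound by estrogen-related receptors, stood in 8.11% of complex I promoters and 5.38% of all. GGGCGG, bound by SP factors, was found in 51.4% of complex I promoters and 38.2% of all, and overlapped CCGGAAG in Ndufs3. CCAAT, bound by NFY, was less frequent in complex I promoters (35.1%) than in all (41.1%), as was CACGTG, an E-box (5.41% of complex I promoters and 8.09% of all). A match is a description of letters in this window only, and these shares were not tested. The shares of all promoters were not limited to genes tested for fold change. Any relation of the letters to the folds was not tested.

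The 6 core subunits of the matrix arm described here all rose in cardiomyocytes. Their log2 fold changes ran from 3.06 to 4.002 with a median of 3.71, and the nonmyocyte level was a median of 7.69% of the cardiomyocyte level. For none of the 6 did the fractions overlap. Among all tested genes, 31.6% were higher, and 34.1% had every cardiomyocyte library above every nonmyocyte library.

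Electrons enter at Ndufv1, Ndufv2 and Ndufs1. Ndufv1, which binds NADH and the flavin (chromosome 19, mm9 positions 4007497 to 4012806), held 1454, 1575 and 1418 CPM in cardiomyocyte libraries 1 to 3, against 97.0, 99.7 and 88.3 CPM in nonmyocyte libraries 1 to 3. Ndufv2, its partner with an iron-sulfur cluster (chromosome 17, 66428135 to 66450899), held 1147, 1471 and 1223 CPM in cardiomyocytes, against 108, 111 and 107 CPM in nonmyocytes. Both genes kept a gap of about an order of magnitude between fractions, with libraries of 1 fraction close to each other. Ndufs1, the large subunit with several iron-sulfur clusters (chromosome 1, 63190170 to 63223396), held 517, 770.5 and 772 CPM in cardiomyocytes, against 49.7, 40.4 and 38.4 CPM in nonmyocytes. Cardiomyocyte library 1 was the low one for Ndufs1, still far above all nonmyocyte libraries. The log2 fold changes were 3.96 ± 0.15 for Ndufv1 (SE, edgeR adjusted p = 5.29e-10), 3.56 ± 0.16 for Ndufv2 (1.67e-09) and 4.002 ± 0.19 for Ndufs1 (3.69e-09).

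Ndufs3, Ndufs7 and Ndufs8 lie on the side toward ubiquinone. Ndufs7, which carries the last iron-sulfur cluster (chromosome 10, 79711866 to 79719539), held 1599, 1512 and 1254 CPM in cardiomyocytes, against 106, 113 and 81.6 CPM in nonmyocytes. Ndufs7 is one of the 7 genes with the AAGATGGC letters printed above. Ndufs8, with a further pair of clusters (chromosome 19, 3908870 to 3912750), held 1048, 1224 and 930.05 CPM in cardiomyocytes, against 122, 107 and 81.8 CPM in nonmyocytes. Per length, Ndufs8 was the most abundant of these core subunits, with 1417 ± 196 RPKM in cardiomyocytes and 138 ± 27.1 RPKM in nonmyocytes (SD, n = 3 each, RPKM being CPM per kilobase of exon). Ndufs3, the one of them with the lowest levels (chromosome 2, 90734791 to 90744984), held 109, 139.7 and 112 CPM in cardiomyocytes, against 12.99, 11.9 and 18.2 CPM in nonmyocytes. Its level is uncertain, since 75.7% of its transcript bases are near-identical to a pseudogene. Log2 fold changes were 3.86 ± 0.18 for Ndufs7 (edgeR adjusted p = 2.54e-09), 3.36 ± 0.18 for Ndufs8 (1.09e-08) and 3.06 ± 0.20 for Ndufs3 (4.59e-08, the highest of these core subunits).

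**Figure D1:**
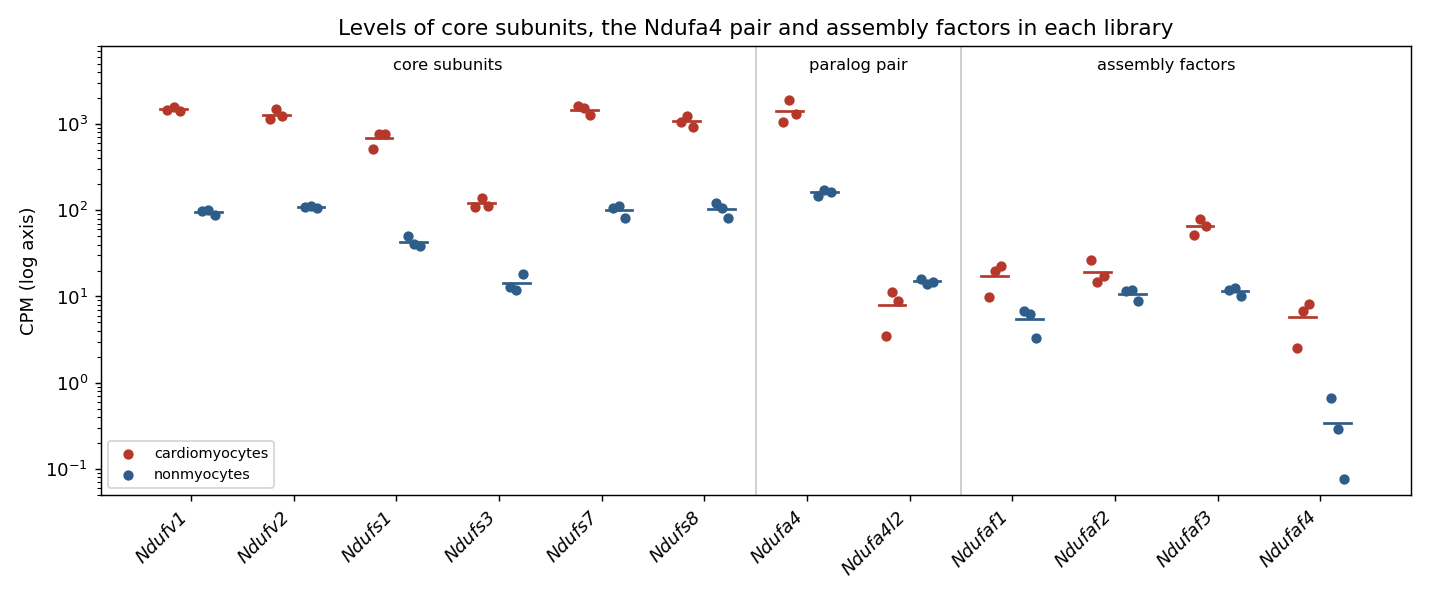
CPM on a log axis of the 6 core subunits, the pair Ndufa4 and Ndufa4l2 and the 4 assembly factors, with 1 point per library and the mean of 3 libraries as a bar, cardiomyocytes in red to the left and nonmyocytes in blue to the right. None of these core subunits falls below 109 CPM in a cardiomyocyte library or passes 122 CPM in a nonmyocyte library, and Ndufa4l2 is the gene with the cardiomyocyte points below.

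Accessory subunits of the matrix arm rose as well, over a wider range. All 9 tested were called, at a median of 2.70, from 1.48 for Ndufa7 to 3.90 for Ndufa5. For comparison, 31.6% of all tested genes were higher and 34.1% lay without overlap in this direction. Ndufa5 (chromosome 6, 24468666 to 24478013) held 1177, 1309 and 1085 CPM in cardiomyocytes, against 79.9, 84.5 and 75.4 CPM in nonmyocytes. Ndufa7 (chromosome 17, 33961552 to 33975253) held 417, 534 and 418 CPM in cardiomyocytes, against 161, 172 and 159 CPM in nonmyocytes. The fractions did not overlap for either. Per length, Ndufa5 ranked 10 of the 38 structural genes in cardiomyocytes (1153 ± 109 RPKM) and 18 in nonmyocytes (77.4 ± 4.41 RPKM), while Ndufa7 ranked 14 in cardiomyocytes (944 ± 139 RPKM) and 2 in nonmyocytes (339 ± 15.0 RPKM). The ratio of Ndufa7 to Ndufv1 in RPKM was 1.49, 1.77 and 1.54 in cardiomyocyte libraries, against 8.66, 9.004 and 9.37 in nonmyocyte libraries. The pair joins the smallest fold of this group to one of the largest among core subunits, so the direction of the ratios restates the folds. The log2 fold change was 3.90 ± 0.15 for Ndufa5 (edgeR adjusted p = 6.80e-10) and 1.48 ± 0.16 for Ndufa7 (3.85e-06).

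Ndufa2, a subunit with a thioredoxin-like fold (chromosome 18, 36902115 to 36904179), was the most abundant of this group per length, with 1474 ± 235 RPKM in cardiomyocytes and 325 ± 57.3 RPKM in nonmyocytes (SD, n = 3 each). It held 560.3, 717 and 541 CPM in cardiomyocytes, against 145, 149.7 and 107 CPM in nonmyocytes, without overlap (log2 fold change 2.18 ± 0.18, edgeR adjusted p = 4.12e-07). Folds between these ends were found for Ndufv3 (3.27 ± 0.17), for Ndufa9, which binds a nucleotide cofactor near the ubiquinone site (3.37 ± 0.17), for Ndufa12 (2.79 ± 0.19), for Ndufs4, whose loss in people causes Leigh syndrome (2.70 ± 0.26), and for Ndufa6 (2.52 ± 0.21). Ndufa6 and Ndufa12 are uncertain, with 32.5% of exon bases inside another gene for Ndufa6 and 36.2% of transcript bases near-identical to a pseudogene for Ndufa12. Ndufab1, the mitochondrial acyl carrier protein that is also needed for fatty acid and iron-sulfur cluster synthesis, held only 13.9, 10.2 and 11.1 CPM in cardiomyocytes, against 4.404, 2.71 and 2.41 CPM in nonmyocytes. Its fractions did not overlap either (1.87 ± 0.35, edgeR adjusted p = 0.000462), but 42.4% of its exon bases lie inside other genes. Ndufs6, which binds zinc, was not tested, with 0, 4 and 1 counts in cardiomyocytes and 0, 0 and 2 counts in nonmyocytes.

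Accessory subunits of the membrane arm rose in all 18 tested cases, at a median of 2.73, from 1.76 for Ndufb6 to 3.87 for Ndufb5. The shares over all tested genes were 31.6% higher and 34.1% without overlap in this direction. Ndufb9, a subunit of the LYR protein family (chromosome 15, 58765365 to 58771044), was the most abundant structural gene in cardiomyocytes per length. It held 1764, 2482 and 1758 CPM in cardiomyocytes, against 161, 170.4 and 144 CPM in nonmyocytes. Ndufb8 (chromosome 19, 44624742 to 44629895) held 1482, 1892 and 1398 CPM in cardiomyocytes, against 141, 145 and 107 CPM in nonmyocytes. Library 2 was the highest of the cardiomyocyte libraries for both, as it was for 30 of the 40 tested members, and neither gene's fractions overlapped. Ndufb5 (chromosome 3, 32635912 to 32650488) held 304, 449.96 and 417 CPM in cardiomyocytes, against 27.8, 27.4 and 25.1 CPM in nonmyocytes. Ndufb6 (chromosome 4, 40217624 to 40226454) held 251, 385 and 247 CPM in cardiomyocytes, against 78.7, 98.5 and 84.0 CPM in nonmyocytes. The ratio of Ndufb6 to Ndufb9 in RPKM was 0.141, 0.153 and 0.139 in cardiomyocyte libraries, against 0.483, 0.571 and 0.578 in nonmyocyte libraries. As with Ndufa7, this pair was chosen for its unequal folds, and the direction of the ratios restates them. Log2 fold changes were 3.66 ± 0.18 for Ndufb9 (edgeR adjusted p = 4.60e-09), 3.60 ± 0.18 for Ndufb8 (5.68e-09), 3.87 ± 0.18 for Ndufb5 (2.22e-09) and 1.76 ± 0.20 for Ndufb6 (5.49e-06).

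Folds of the other members of this arm are given by what is known of each. Ndufa8 (2.73 ± 0.17), Ndufb7 (2.73 ± 0.18) and Ndufb10 (3.61 ± 0.17), which carry paired cysteines and lie on the side of the intermembrane space, had folds from the middle to the upper end of the arm. Ndufa13, also known as GRIM-19 (2.34 ± 0.16), Ndufa11 (2.28 ± 0.18) and Ndufc2 (2.23 ± 0.18) had folds near the low end. Ndufa13 and Ndufa11 were nevertheless among the 7 most abundant structural genes per length in cardiomyocytes, at 1874 ± 139.5 and 1499 ± 267 RPKM, and among the 5 most abundant in nonmyocytes, at 369.9 ± 55.9 and 308 ± 50.02 RPKM (SD, n = 3 each). Ndufa1, an X-linked subunit needed early in membrane arm assembly (3.02 ± 0.18), Ndufa10, which resembles nucleoside kinases (3.27 ± 0.16), and Ndufc1 (3.15 ± 0.21) lay nearer to the upper end. Ndufa3 (2.50 ± 0.20), the X-linked Ndufb11 (3.49 ± 0.20) and Ndufb3 (2.45 ± 0.22) were called too, with 50% and 37.0% of transcript bases near-identical to a pseudogene for Ndufb11 and Ndufb3.

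A few members of this arm had very low counts. Ndufb4 held 14.3, 19.0 and 14.8 CPM in cardiomyocytes, against 1.94, 4.16 and 1.86 CPM in nonmyocytes, without overlap (2.62 ± 0.36, edgeR adjusted p = 4.29e-05). Ndufb2 held 1.36, 5.70 and 10.6 CPM in cardiomyocytes, against 1.12, 1.26 and 1.86 CPM in nonmyocytes. Cardiomyocyte library 1 lay among the nonmyocyte libraries for Ndufb2, the one called gene of complex I whose fractions overlapped. Its log2 fold change of 2.10 ± 0.60 (edgeR adjusted p = 0.00827) was 1.42 and not called without cardiomyocyte library 3 (adjusted p = 0.0955), and 1.40 and not called with library totals as the scale (0.0556), in a range of 9.67e-06 to 0.0955 over all alternatives. Ndufs5, another subunit of the intermembrane space, was not tested, with 3, 4 and 4 counts in cardiomyocytes and 2, 1 and 0 counts in nonmyocytes.

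**Figure D2:**
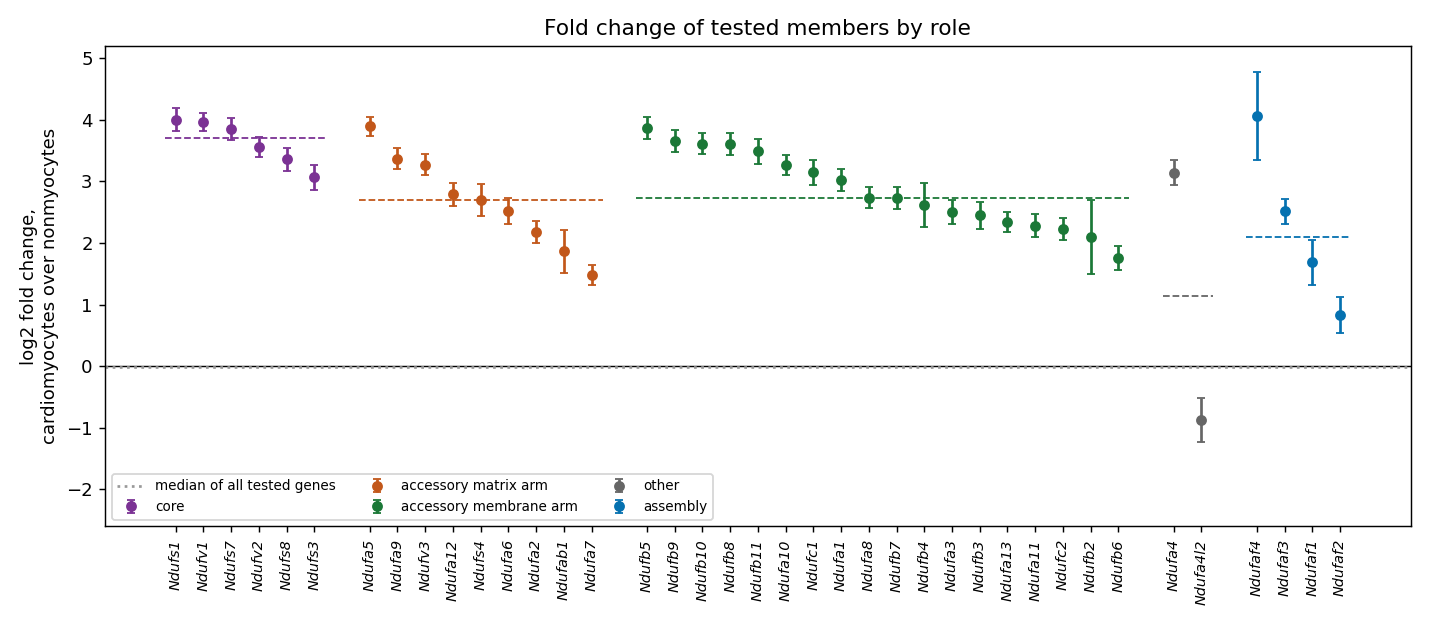
Log2 fold change of cardiomyocytes over nonmyocytes for 39 tested genes, with the standard error of the fit as bars, grouped by role and ordered by size, and the median of each role's genes shown as a dashed line. Core subunits span 3.06 to 4.002, assembly factors 0.83 to 4.06, and Ndufa4l2 is the one gene below 0, where the dotted line marks the median of all 14734 tested genes.

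Among the 42 genes, low levels went with shared bases. Of the 42 genes, 12 had over 20% of their bases either inside other annotated genes or near-identical to another gene, and their median in cardiomyocytes was 23.3 RPKM, with a range of 0.0949 to 1128 RPKM. The other 30 had a median of 756 RPKM and a range of 8.61 to 3074 RPKM. Ndufs6 (63.4% inside other genes), Ndufs5 (46.9% near-identical), Ndufab1, Ndufb2 (27.4% inside other genes) and Ndufb4 (40.2% near-identical), the 5 structural genes with the fewest counts per length apart from Ndufa4l2, are all among the 12. The overlapping noncoding genes with the longest shared stretch in Ndufs6, Ndufab1, Ndufb2 and Ndufaf4 stood at 0 counts in all 6 libraries themselves. Outside the 42, mt-Nd1, mt-Nd2, mt-Nd5 and mt-Nd6 have nearly all bases inside other genes. They held means of 10823, 8708, 6397 and 2552 CPM in cardiomyocytes, while mt-Nd3, with 100%, held 0.636 CPM. How reads in shared bases were counted is not given in the sources used here, and their part in the low levels among the 42 was not tested.

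**Figure D3:**
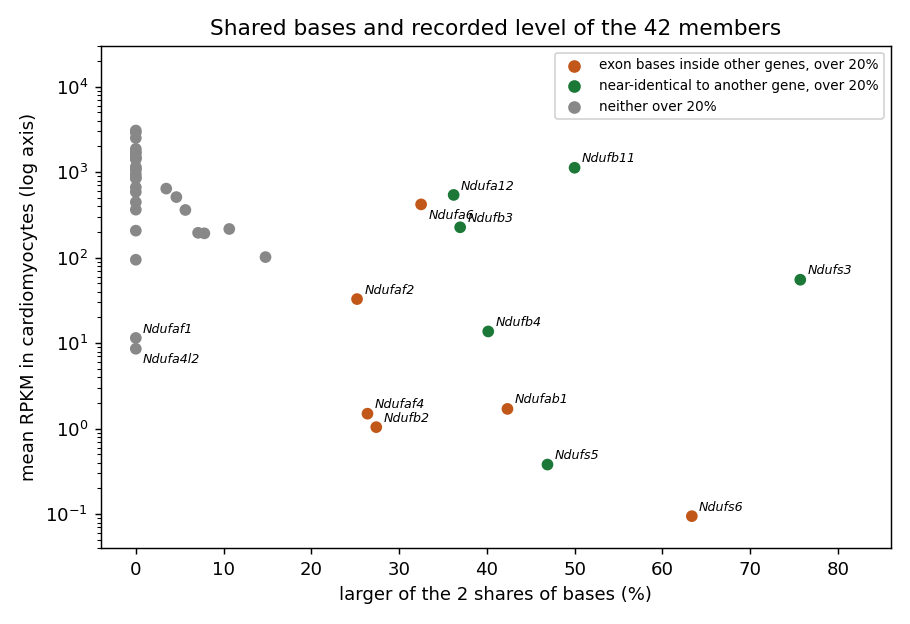
Mean RPKM in cardiomyocytes (n = 3) on a log axis against the larger of a gene's 2 shares of bases in percent, that inside other annotated genes and that near-identical to another gene, with 1 point for each of the 42 genes. Genes over 20% are coloured by the larger share, and 6 of the 8 genes under 14 RPKM are among them, beside Ndufaf1 and Ndufa4l2.

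The order of levels within complex I was much the same in both fractions. Spearman's rho between the mean RPKM of cardiomyocytes and nonmyocytes was 0.915 over the 36 tested structural genes, where libraries of 1 fraction gave 0.985 to 0.991 in cardiomyocytes and 0.985 to 0.992 in nonmyocytes. Between fractions, rho was 0.882 over the 28 structural genes without shared or near-identical bases over 20%. These are values across genes, which share the same libraries and gene lengths. In cardiomyocytes the leading genes per length were Ndufb9 (3074 ± 639 RPKM), Ndufa4 (2914 ± 888), Ndufb8 (2513 ± 418), Ndufa13 (1874 ± 139.5) and Ndufa1 (1719 ± 308), and the spread of each was wider than its distance to the next except for Ndufb8 and Ndufa13. In nonmyocytes they were Ndufa13 (369.9 ± 55.9 RPKM), Ndufa7 (339 ± 15.0), Ndufa4 (330.1 ± 25.5), Ndufa2 (325 ± 57.3) and Ndufa11 (308 ± 50.02), none of them farther from the next than its own spread. Across the 27 structural genes without shared or near-identical bases over 20% and without Ndufa4l2, the log2 fold change correlated with the length of the longest transcript. Spearman's rho was 0.578, against -0.05 across all 14734 tested genes. Length was not separated from role in this set, and the relation was not tested.

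Ndufa4 and Ndufa4l2 are paralogs that carry the family name, although Ndufa4 is now counted as a subunit of cytochrome c oxidase, and they moved in opposite directions. Ndufa4 (chromosome 6, 11850374 to 11857441) held 1050.5, 1892 and 1306 CPM in cardiomyocytes, against 147, 171 and 163 CPM in nonmyocytes. Ndufa4l2, which is induced by hypoxia in many cells (chromosome 10, 126952034 to 126954208), held 3.49, 11.3 and 8.97 CPM in cardiomyocytes, against 16.1, 14.1 and 14.8 CPM in nonmyocytes. Neither gene's fractions overlapped, and cardiomyocyte library 1 was the lowest for both. Of all tested genes, 34.1% lay without overlap in the direction of Ndufa4 and 36.3% in that of Ndufa4l2. Per length, Ndufa4l2 stood at 0.175%, 0.316% and 0.362% of Ndufa4 in cardiomyocyte libraries, against 5.79%, 4.35% and 4.79% in nonmyocyte libraries, a ratio whose direction restates the folds. The log2 fold change was 3.14 ± 0.21 for Ndufa4 (edgeR adjusted p = 5.73e-08) and -0.87 ± 0.36 for Ndufa4l2 (0.0481). The call of Ndufa4l2 was near the threshold. It was -0.53 and not called without cardiomyocyte library 1 (edgeR adjusted p = 0.0616), and it was not called without cardiomyocyte library 3 (0.0888) or nonmyocyte library 1 (0.107), 2 (0.0742) or 3 (0.0860) or when tested against a 2-fold change (0.611), the highest of all alternatives, of which the lowest was 0.000901 with library totals.

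The 4 assembly factors rose in cardiomyocytes too, at much lower levels, where 31.6% of all tested genes were higher. Ndufaf3 (chromosome 9, 108468195 to 108469294), which joins early intermediates of the ubiquinone side, held 51.3, 78.8 and 65.6 CPM in cardiomyocytes, against 11.8, 12.7 and 10.01 CPM in nonmyocytes. Ndufaf4 (chromosome 4, 24825230 to 24832148), its partner at that step, held 2.52, 6.79 and 8.24 CPM in cardiomyocytes, against 0.672, 0.290 and 0.0776 CPM in nonmyocytes. The partners thus differed in level more than in direction, and neither gene's fractions overlapped. Ndufaf4 had 9, 3 and 1 counts in nonmyocytes, passed the filter through the cardiomyocyte libraries alone, and has 26.4% of its exon bases inside other genes, so its log2 fold change of 4.06 ± 0.71 (edgeR adjusted p = 0.000187), the largest point estimate of the 40, is imprecise. Without nonmyocyte library 1 it was 5.07 (edgeR adjusted p = 0.000243), in a range of 9.71e-10 to 0.00176 over all alternatives. The fold of Ndufaf3 was 2.51 ± 0.21 (3.93e-07).

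Ndufaf1 (chromosome 2, 119481182 to 119488563), which acts with Acad9 and Ecsit on the membrane arm, held 9.88, 19.7 and 22.3 CPM in cardiomyocytes, against 6.87, 6.18 and 3.34 CPM in nonmyocytes. Ndufaf2 (chromosome 13, 108842785 to 108948785), a paralog of Ndufa12 that holds its place late in assembly, held 26.3, 14.6 and 17.3 CPM in cardiomyocytes, against 11.6, 11.9 and 8.77 CPM in nonmyocytes. The fractions came close for both without overlap. The log2 fold change was 1.68 ± 0.37 for Ndufaf1 (edgeR adjusted p = 0.00143) and 0.83 ± 0.29 for Ndufaf2 (0.0224). For Ndufaf2 the call was lost without nonmyocyte library 3 (0.77, adjusted p = 0.0739), with library totals (0.18, 0.620) and against a 2-fold change (0.702), in a range of 0.00694 to 0.702 over all alternatives, and 25.2% of its exon bases lie inside another gene. Its paralog Ndufa12 had a fold of 2.79 ± 0.19, and the difference between the 2 genes was not tested.

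Structural genes thus stood above assembly factors in level in both fractions. The median level of the 36 tested structural genes was taken on the log2 scale. It was 577, 709 and 588 RPKM in cardiomyocyte libraries, against 76.6, 76.2 and 65.2 RPKM in nonmyocyte libraries. The median assembly factor stood at 17.1, 17.97 and 20.9 RPKM in cardiomyocytes, against 8.85, 8.70 and 5.68 RPKM in nonmyocytes. Neither set overlapped between fractions. The ratio of these medians was 33.7, 39.5 and 28.2 in cardiomyocyte libraries, against 8.65, 8.76 and 11.5 in nonmyocyte libraries, without overlap. On the fitted folds the structural median exceeded the assembly median by 0.94 on the log2 scale, and this difference ran from 0.80 to 1.29 over the alternatives. With 4 assembly factors whose own folds span 0.83 to 4.06, it is given as a description with no test. The assembly median includes Ndufaf4, which passed the filter through the cardiomyocyte libraries alone. Apart from it, the folds were 0.83 for Ndufaf2, 1.68 for Ndufaf1 and 2.51 for Ndufaf3. Structural genes together took 25999, 33121 and 25931 CPM in cardiomyocytes, against 3415, 3539 and 2935 CPM in nonmyocytes, and assembly factors 90.1, 119.8 and 113.5 CPM in cardiomyocytes, against 31.0, 31.0 and 22.2 CPM in nonmyocytes. The ratio of these sums was 289, 276 and 228 in cardiomyocytes, against 110.2, 114 and 132 in nonmyocytes. The ratio of medians, the ratio of sums and the fitted folds thus all put structural genes further above assembly factors in cardiomyocytes, but by different amounts, and a median of 4 genes rests on the middle pair. All 42 genes made up 2.05% to 2.39% of the counts of cardiomyocyte libraries and 0.372% to 0.455% of those of nonmyocyte libraries.

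**Figure D4:**
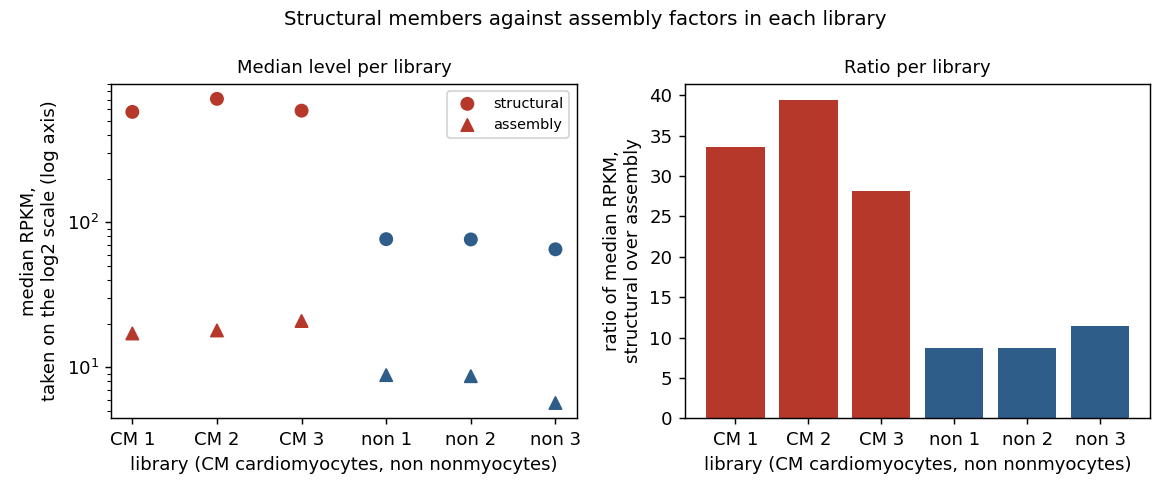
Left, the median RPKM on the log2 scale (log axis) of the 36 tested structural genes (circles) and the 4 assembly factors (triangles) in each library, with cardiomyocytes (CM) in red and nonmyocytes (non) in blue. Right, the ratio of structural to assembly level per library from these medians, 28.2 or more in cardiomyocytes and 11.5 or less in nonmyocytes.

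Other assembly factors of complex I, listed under symbols without the prefix, were mostly higher as well. Of 14 such genes 13 were in the table and 12 were tested. Of the 12, 11 were higher, none was lower and 1 was not called, at a median of 1.75. Over all tested genes 31.6% were higher. The largest folds were those of Ecsit (200.3 ± 25.3 CPM in cardiomyocytes and 21.2 ± 1.92 CPM in nonmyocytes, log2 fold change 3.24 ± 0.17) and of Dmac2, listed as Atp5sl (3.19 ± 0.18). Ndufaf5, listed as 2310003L22Rik, which in human cells hydroxylates NDUFS7, had 2.05 ± 0.30. Ndufaf7, listed as 2410091C18Rik, an arginine methyltransferase, had 1.16 ± 0.35. Its cardiomyocyte library 1 (10.1 CPM) lay among the nonmyocyte libraries (11.6, 9.86 and 9.78 CPM). Ndufaf6, listed as 2310030N02Rik, had 1 cardiomyocyte library above 0, at 0.0518 CPM, and was not tested. Acad9 had 0.76 ± 0.30 (edgeR adjusted p = 0.0399) and Tmem126b 0.37 ± 0.39, not called (0.428), both with overlapping fractions. Levels are uncertain for Acad9, Tmem126b and Dmac2, with 45.9%, 72.5% and 34.7% of exon bases inside other genes. Acad9 and Tmem126b act with Ndufaf1 and Ecsit. Folds in that assembly group ran from 0.37 to 3.24, and the low end rests on Acad9 and Tmem126b.

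The 7 mitochondrially encoded subunits form the core of the membrane arm. The 5 that could be tested were all higher, with a median of 4.26, where 31.6% of all tested genes were higher. The largest fold was that of mt-Nd2, with 4199, 11365 and 10559 CPM in cardiomyocytes, against 249, 283 and 150.2 CPM in nonmyocytes (5.26 ± 0.33, edgeR adjusted p = 9.10e-08). The smallest fold was that of mt-Nd5, with 2954, 8488 and 7749 CPM in cardiomyocytes, against 365.5, 472 and 288 CPM in nonmyocytes (4.09 ± 0.32, 5.09e-07). Cardiomyocyte library 1 was the lowest of its fraction for both, and mitochondrially encoded genes took 3.06% of its counts, against 6.12% and 5.85% in cardiomyocyte libraries 2 and 3. Levels of mt-Nd1, mt-Nd2, mt-Nd5 and mt-Nd6 are uncertain because other annotated genes cover nearly all of their bases. For mt-Nd4 that share was 0.508%. It held 2659, 5920 and 5357 CPM in cardiomyocytes, against 180, 231 and 110 CPM in nonmyocytes (4.74 ± 0.30, edgeR adjusted p = 8.77e-08). The remaining mt-Nd3 and mt-Nd4l stood at 0 in nonmyocytes and at 1.04 CPM or less in cardiomyocytes.

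Other mitochondrial lists are set beside the structural genes and the assembly factors of complex I. All 4 tested genes of complex II were higher at a median of 3.62, all 8 of complex III at 3.39, and 12 of 13 of ATP synthase at 3.28, against 3.04 for the structural genes of complex I. All 7 tested assembly factors of complex IV were higher, at a median of 1.88, and 3 of 4 of complex II, at 1.13, against 2.10 for the 4 of complex I. Of 73 mitochondrial ribosome genes 65 were higher, at a median of 1.56, and of 10 import and outer membrane genes 8, at 0.88. Over all tested genes 31.6% were higher and 32.1% were lower. None of the differences between lists was tested.

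**Figure D5:**
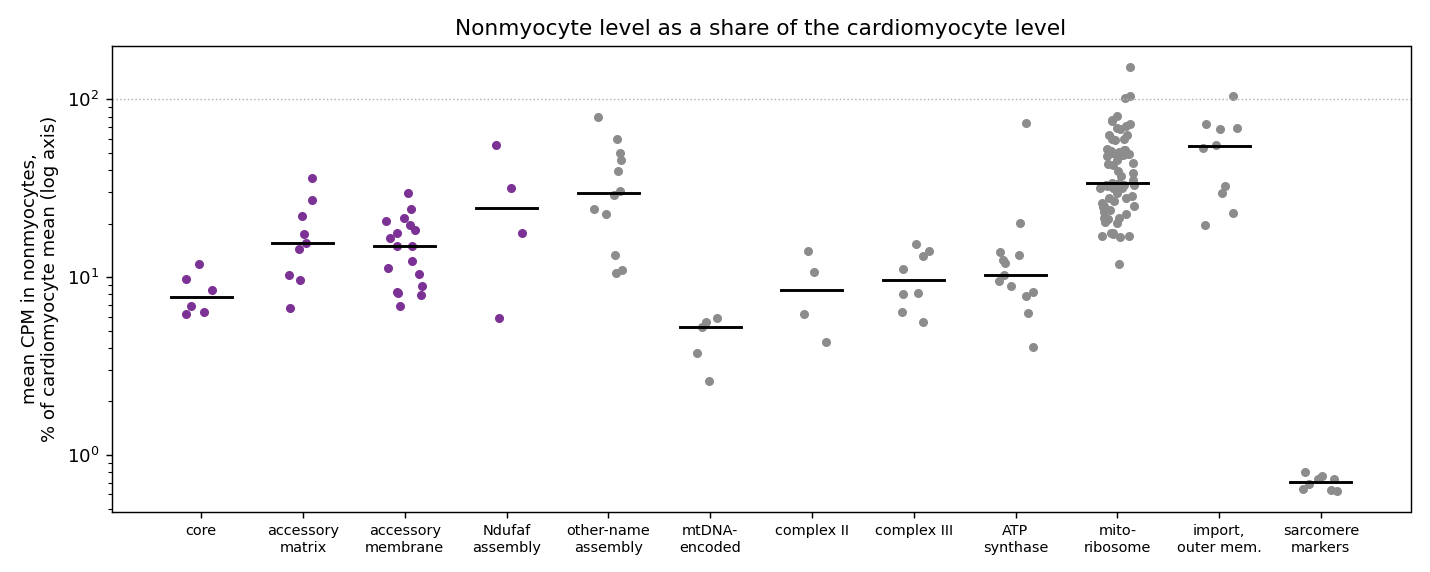
Mean CPM in nonmyocytes as a percentage of the mean in cardiomyocytes (log axis), with 1 point per tested gene (6 core subunits) and the median as a bar, complex I groups in purple and other mitochondrial lists and sarcomere markers in grey. Medians are 7.69% for core subunits, 15.6% and 15.1% for the accessory arms and 24.6% for the Ndufaf assembly factors, and 0.707% for sarcomere markers.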

How the data were processed

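Per the labels' protocols, RNA with poly(A) tails was selected with oligo(dT) and sequenced as fragmented single-end libraries that carry no strand information. The authors deposited whole-number counts per gene, not normalized, for 6 libraries. The submitters' processing notes name Bowtie, TopHat 1.3.0, HTSeq, DESeq and edgeR and the mouse build mm9 (NCBIM37), with no roles. The rule for counting shared reads is not given in the sources used here. Coordinates (start and end positions, classed as other values) come from the annotation the authors deposited with mm9. Small RNA libraries were not used here.

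Genes were filtered with filterByExpr (minimum count 10), scaled with TMM and tested with edgeR 4.0.16 (robust quasi-likelihood, two-sided) in R 4.3.3 over all 14734 genes left, with Benjamini-Hochberg adjustment and a threshold of 0.05. The script was tested on simulated data. CPM uses TMM-scaled library sizes, and 3 counts equal 0.145 to 0.581 CPM in cardiomyocytes and 0.224 to 0.290 CPM in nonmyocytes. RPKM divides by the union of exons. Near-identical bases (at least 95% identity over 50 bases) were found with blastn 2.17.0 among GENCODE vM21 transcripts of genes elsewhere. Promoters are RefSeq's. Figures were made with Python 3.11.15 and matplotlib 3.10.9.

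All members are counted in the totals and medians over structural genes, but 1 of them is not reported here. Values per library are given for the leading members of each role by level and fold, for every assembly factor and for those with low counts. The gene family and the lists were picked with earlier results of these data known, although the prefix rule itself reads no value. The labels do not say which heart a numbered library came from, and p-values then measure only how these libraries spread, which may be technical in part. Alternatives were other scalings, no filter, DESeq2 1.42.0, limma 3.58.1 voom, a test against a 2-fold change, a replicate block, each library left out and mitochondrial genes left out. Leaving out near-identical members or the Ndufa4 pair, and adding assembly factors with other symbols, were chosen after seeing the data. The correlation of fold with transcript length was outside the plan.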

Additional observations from a re-analysis of the deposited data

How the results depend on the processing

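No member changed direction in any alternative. Of the values of single members under alternatives, 589 kept their side of the threshold and 11 lost it, all of Ndufb2, Ndufaf2 and Ndufa4l2 as given above. Library totals moved the median of all genes by -0.68 (30.9% of called genes were then higher, against 49.6%), called 7106 genes lower, and gave medians of 2.36 for structural genes and 1.40 for assembly factors. Relative to all genes these were 3.06 and 2.11, against 3.06 and 2.12 with TMM. Without the filter that median moved by 0.10, and the structural median was 3.11 over the members tested with the filter and 2.97 with Ndufs5 and Ndufs6 added. Relative to all genes the value with both added was 2.89 and that of assembly factors 2.08. Against a 2-fold change 3023 genes were called higher and 2996 lower, with 0 structural genes lower. The count of structural genes lower was also 0 without Ndufa4 and Ndufa4l2. As each library was left out it was 0, except without cardiomyocyte library 2, where it was 1. Assembly factors called higher numbered 2 without members with over 20% of exon bases in other genes and 15 with factors under other symbols, both by construction. With the replicate number as a block the medians were 3.04 and 2.08, and no call of a member was lost. Same-numbered libraries correlated at 0.162, 0.0504 and 0.100 in their deviations from the group means, and not every library correlated best with its own number, so the numbers were not taken as pairs. Leaving out a library also lowers power. Ndufs5, Ndufs6 and the nonmyocyte level of Ndufaf4 rest on 9 counts or fewer in each library, which limits their precision.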
